A study of Gallus gallus with 8 samples.

Results

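The genes described here are 36 components of the Notch signalling pathway, comprising its receptors, ligands, processing enzymes, nuclear partners, modifiers and the HES and HEY target factors, in sorted otic and epibranchial cells of the chick embryo. They were picked by a rule on gene names, from a table of 24356 genes, but with earlier results of these data known. Of the 36 genes, 35 passed the filter on low counts and were tested together with 16861 genes in all. The exception was HES2, a repressor of the HES family, which had at most 3 counts in any library and is not discussed further.

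Otic cells were labelled with Lmx1aE1-EGFP and epibranchial cells with Sox3U3-EGFP, plasmids in which an enhancer drives green fluorescent protein, and each reporter gave 4 RNAseq libraries. Embryos were electroporated in ovo at somite stage (ss) 3 to 6, according to the design text, and collected at ss18 to ss21, and 2000 living EGFP+ cells were sorted for each library. The study describes collection both from the dissected ear region and from whole heads, gives neither the strain nor the number of embryos behind a library, and defines each population by activity of an electroporated enhancer, so that cells which did not take up the plasmid were not sampled. Both groups carried a reporter plasmid, and the contrast is between these reporters, with no unlabelled cells in it. P-values set the reporter difference against the spread between the libraries of a reporter. The study calls the libraries biological replicates, and the labels do not say whether these came from separate batches of embryos.

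Notch receptors are activated by Delta and Jagged ligands on neighbouring cells. After ligand binding, an ADAM protease and then the gamma-secretase complex cut the receptor, and the freed intracellular domain joins the DNA-binding protein RBPJ and a Mastermind coactivator in the nucleus to switch on HES and HEY repressors, which hold down proneural genes. In the inner ear the pathway is best known for lateral inhibition between neuroblasts or hair cells and their neighbours, in which Delta ligands act, and for the specification of sensory patches, in which JAG1 acts.

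Library totals ran from 6559872 to 24173945 counts for Lmx1aE1-EGFP and from 9388922 to 45183366 counts for Sox3U3-EGFP. Each reporter had 2 libraries above 15000000 counts, called deeper here, and 2 below, called shallower. They are Lmx1aE1-EGFP libraries 3 and 4 and Sox3U3-EGFP libraries 1 and 2, and Lmx1aE1-EGFP libraries 1 and 2 and Sox3U3-EGFP libraries 3 and 4. Among 12 otic markers in the test, 4 had higher levels in Lmx1aE1-EGFP+ cells, whereas 2 others and all 6 epibranchial markers in the test had higher levels in Sox3U3-EGFP+ cells. Of 12 neural crest markers, 9 were higher in Lmx1aE1-EGFP+ cells and 1 was lower, with summed levels of 935 to 1012 CPM (counts scaled to the TMM-adjusted library total) in Lmx1aE1-EGFP libraries and 306 to 393 CPM in Sox3U3-EGFP libraries. Sensory neuron markers summed to 589.5 to 735 CPM in Lmx1aE1-EGFP libraries, against 557 to 667 CPM in Sox3U3-EGFP libraries. Most of these sums came from TUBB3, with means of 451.5 and 415.3 CPM. Of 9 sensory neuron markers in the test, 1 passed, GAP43, which was higher in Sox3U3-EGFP+ cells (log2 fold change -0.90, edgeR adjusted p = 0.0276). The part of neural crest cells in the differences below was not tested.

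Most Notch pathway genes were expressed in both populations, and 11 of the 35 differed. MAML2, DTX4, MIB1 and ADAM10 had higher levels in Lmx1aE1-EGFP+ cells. HEY2, HEY1, HES4, NUMB, NCSTN, PSEN2 and JAG1 had higher levels in Sox3U3-EGFP+ cells. The receptors NOTCH1 and NOTCH2, the ligands DLL1 and JAG2 and the target factors HES1 and HES5 did not pass the test. Among the genes that passed, log2 fold changes (Lmx1aE1-EGFP over Sox3U3-EGFP) ran from -1.05 to 1.29. In bulk libraries, fewer cells of a type and less RNA per cell cannot be told apart.

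By edgeR's quasi-likelihood test at an adjusted p under 0.05, 11 of 35 genes passed (31.4%), compared with 23.3% of all genes tested. Those higher in Lmx1aE1-EGFP+ cells were 4 (11.4%, against 12.1% of all genes), and those higher in Sox3U3-EGFP+ cells were 7 (20%, against 11.3% of all genes). None also passed the study's threshold of 1.5 on the absolute log2 fold change, which 0.712% of all genes did with higher levels in Lmx1aE1-EGFP+ cells and 2.47% with higher levels in Sox3U3-EGFP+ cells. The counts past both thresholds were also 0 and 0 at an unadjusted p under 0.05 (0.759% and 2.7% of all genes). They were 0 and 0 with DESeq2, and 0 and 1 with limma-voom. The libraries of the 2 reporters did not overlap for 12 genes (34.3%), compared with 26% of all genes tested. The median log2 fold change, Lmx1aE1-EGFP over Sox3U3-EGFP, was -0.23 over the 35 genes and -0.04 over all genes tested. The median of the 35 genes was 0.015 without Sox3U3-EGFP library 2, -0.020 without Sox3U3-EGFP library 4 and -0.11 without Lmx1aE1-EGFP library 1.

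**Figure D1:**
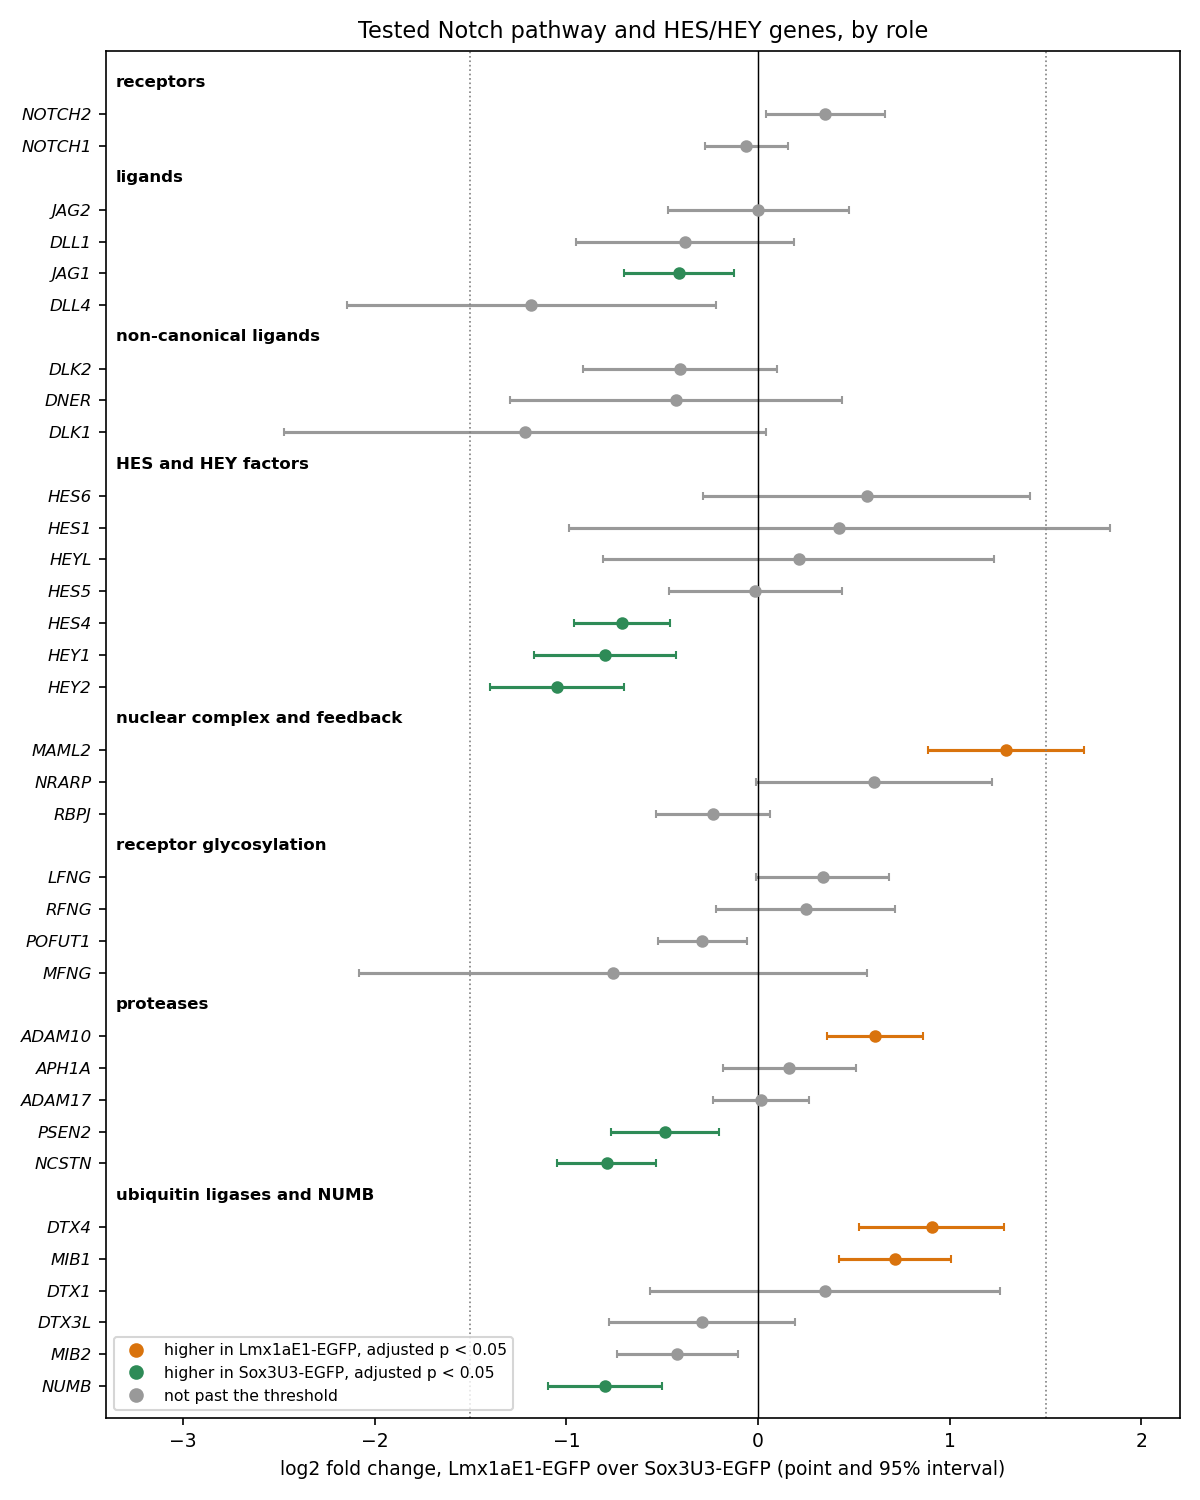
Log2 fold change (x axis, Lmx1aE1-EGFP over Sox3U3-EGFP) of 34 of the 35 tested genes, grouped by role, with points for edgeR estimates, bars for 95% confidence intervals and dotted lines at the fold-change threshold of 1.5. The 4 orange genes, led by MAML2 at 1.29, had higher levels in Lmx1aE1-EGFP+ cells, and the 7 green genes, led by HEY2 at -1.05, in Sox3U3-EGFP+ cells.

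Neither receptor passed the test between the 2 populations. NOTCH1 had 243, 229.6, 237 and 239 CPM in Lmx1aE1-EGFP libraries 1 to 4, against 225, 281, 213 and 270.2 CPM in Sox3U3-EGFP libraries 1 to 4. The Lmx1aE1-EGFP libraries all lay inside the range of the Sox3U3-EGFP libraries. Its log2 fold change was -0.060 (standard error, SE, 0.10, 95% confidence interval -0.28 to 0.15, edgeR adjusted p = 0.713). NOTCH2 had 158, 184, 195 and 179 CPM in Lmx1aE1-EGFP libraries, against 156, 182, 113 and 109.5 CPM in Sox3U3-EGFP libraries. The Sox3U3-EGFP libraries fell into a higher pair, the deeper libraries 1 and 2, and a lower pair, the shallower libraries 3 and 4, and the groups overlapped. Its log2 fold change of 0.35 (SE 0.15) did not pass the test (edgeR adjusted p = 0.0961). Without Sox3U3-EGFP library 2 it was 0.50 (edgeR adjusted p = 0.0145, with a range of 0.0115 to 0.549 over the 19 alternatives), and it also passed within the shallower libraries and with depth class as a block. Of the 2 receptors, 1 had an unadjusted p under 0.05 (35.4% of all genes did), and neither passed with DESeq2 or limma-voom.

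Among the 4 canonical ligands, JAG1 was higher in Sox3U3-EGFP+ cells, DLL1 and JAG2 did not pass the test, and DLL4 did not pass with edgeR but passed with DESeq2 and limma-voom. JAG1, the ligand of prosensory patches, had 32.1, 33.8, 35.5 and 32.7 CPM in Lmx1aE1-EGFP libraries 1 to 4, against 41.8, 51.3, 36.6 and 48.8 CPM in Sox3U3-EGFP libraries 1 to 4. The groups did not overlap, but Lmx1aE1-EGFP library 3 and Sox3U3-EGFP library 3 were close (p = 0.0286 by an exact two-sided permutation of the libraries, which cannot go lower with 4 in each group). The log2 fold change was -0.41 (SE 0.14, edgeR adjusted p = 0.0372). This call was lost in 11 of 19 alternatives, among them each single omission of a library other than Sox3U3-EGFP library 3, and the adjusted p reached 0.247 within the shallower libraries.

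DLL1, the ligand of lateral inhibition in neuroblasts, had 17.7, 14.6, 27.7 and 13.4 CPM in Lmx1aE1-EGFP libraries, against 30.4, 29.0, 22.2 and 14.0 CPM in Sox3U3-EGFP libraries. Lmx1aE1-EGFP library 3 was as high as the upper Sox3U3-EGFP libraries and Sox3U3-EGFP library 4 as low as the lower Lmx1aE1-EGFP ones. It had a log2 fold change of -0.38 (SE 0.26, 95% confidence interval -0.95 to 0.19, edgeR adjusted p = 0.332). JAG2, which is expressed in hair cells of the later ear, had 15.6, 16.8, 17.8 and 8.04 CPM in Lmx1aE1-EGFP libraries, against 14.8, 15.7, 13.3 and 13.7 CPM in Sox3U3-EGFP libraries. Lmx1aE1-EGFP library 4 was the lowest of all, and the other libraries lay close together. This gave a log2 fold change of 0.0019 (SE 0.22, edgeR adjusted p = 0.996).

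DLL4, a Delta ligand known from arterial endothelium and also used in neural progenitors, had 3.14, 2.73, 0.623 and 4.79 CPM in Lmx1aE1-EGFP libraries, against 4.43, 6.86, 6.62 and 7.79 CPM in Sox3U3-EGFP libraries. The groups overlapped only through Lmx1aE1-EGFP library 4. The log2 fold change was -1.18 (SE 0.45, edgeR adjusted p = 0.072), and -1.71 (edgeR adjusted p = 0.0169, with a range of 0.00986 to 0.571 over the alternatives) without Lmx1aE1-EGFP library 4. It also passed with DESeq2 (adjusted p = 0.0332), with limma-voom (adjusted p = 0.00986) and after thinning every library to the smallest total (edgeR adjusted p = 0.0171). Markers of endothelium and blood, 12 genes in all, summed to 203.9, 164.9, 91.4 and 557 CPM in Lmx1aE1-EGFP libraries, against 295, 275, 230.3 and 261 CPM in Sox3U3-EGFP libraries. These sums overlapped, with Lmx1aE1-EGFP library 4 above all Sox3U3-EGFP libraries. Of the 10 tested, KDR and EGFL7 were higher in Sox3U3-EGFP+ cells and the others did not pass, and no marker was at 0 in every library. The haemoglobin gene HBZ averaged 135 CPM in Lmx1aE1-EGFP libraries and 58.9 CPM in Sox3U3-EGFP libraries and did not pass (edgeR adjusted p = 0.67). The 8 endothelial genes of this list, set apart after their values were seen, summed to 83.9, 81.7, 75.7 and 156 CPM in Lmx1aE1-EGFP libraries and to 138, 176, 194 and 238 CPM in Sox3U3-EGFP libraries. These sums overlapped too. The part of endothelial cells in the DLL4 difference was not tested.

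The non-canonical ligands DLK1, DLK2 and DNER had log2 fold changes between -1.22 and -0.41. None of the 3 passed edgeR's test, which was also so at an unadjusted p under 0.05 and with DESeq2 and limma-voom. DLK1 rested on 2 to 56 counts in a library, so that its 95% confidence interval ran from -2.48 to 0.043. DNER, a transmembrane protein of neurons, had 1.964 to 4.40 CPM in Lmx1aE1-EGFP libraries, against 2.23 to 9.78 CPM in Sox3U3-EGFP libraries, with the highest value in Sox3U3-EGFP library 2.

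Among the ubiquitin ligases that act on ligands or receptors, MIB1 and DTX4 had higher levels in Lmx1aE1-EGFP+ cells, whereas the receptor inhibitor NUMB was higher in Sox3U3-EGFP+ cells. MIB1, or Mind bomb, the ligase that sends ligands into endocytosis in the signal-sending cell, had 70.8, 75.6, 63.6 and 53.9 CPM in Lmx1aE1-EGFP libraries, against 36.3, 42.4, 46.7 and 35.2 CPM in Sox3U3-EGFP libraries. All 4 Lmx1aE1-EGFP libraries lay above all 4 Sox3U3-EGFP libraries, with the shallower ones highest among them. It had a log2 fold change of 0.71 (SE 0.14, edgeR adjusted p = 0.00134).

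DTX4, a ligase of the Deltex family that acts on the receptor, had 16.8, 17.4, 18.5 and 14.6 CPM in Lmx1aE1-EGFP libraries, against 9.30, 9.19, 7.35 and 9.92 CPM in Sox3U3-EGFP libraries. The groups were well apart, with a log2 fold change of 0.91 (SE 0.18, edgeR adjusted p = 0.0016). NUMB, an endocytic adaptor that lowers Notch activity, had 48.8, 54.1, 50.5 and 53.9 CPM in Lmx1aE1-EGFP libraries, against 74.7, 98.8, 73.5 and 114 CPM in Sox3U3-EGFP libraries. The Lmx1aE1-EGFP libraries were nearly equal, and the Sox3U3-EGFP libraries, all higher, spread more widely, with libraries 2 and 4 at the top. Its log2 fold change was -0.80 (SE 0.14, edgeR adjusted p = 0.000621).

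The other 3 genes of this class did not pass. MIB2, the related Mind bomb ligase, had 21.8 to 25.6 CPM in Lmx1aE1-EGFP libraries and 26.2 to 38.8 CPM in Sox3U3-EGFP libraries, which did not overlap. Its log2 fold change of -0.42 (SE 0.15) lay at the threshold (edgeR adjusted p = 0.0503, with a range of 0.0196 to 0.357 over the alternatives) and passed in 7 of 19 alternatives. The levels of DTX1 and DTX3L overlapped between the reporters, with log2 fold changes of 0.35 (SE 0.43) and -0.29 (SE 0.23).

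The receptor-cutting enzymes divided by class. ADAM10, the main protease of the first cut, had higher levels in Lmx1aE1-EGFP+ cells, and NCSTN and PSEN2 of the gamma-secretase complex, which makes the next cut, were higher in Sox3U3-EGFP+ cells. ADAM10 had 132, 136, 111 and 99.4 CPM in Lmx1aE1-EGFP libraries, against 73.5, 74.9, 78.3 and 85.6 CPM in Sox3U3-EGFP libraries. The groups did not overlap, and the shallower libraries were the higher ones within each reporter. This gave a log2 fold change of 0.61 (SE 0.12, edgeR adjusted p = 0.00128). ADAM17, a related protease, had 41.2 to 48.8 CPM in Lmx1aE1-EGFP libraries, against 42.0 to 46.3 CPM in Sox3U3-EGFP libraries, and its log2 fold change of 0.017 had a 95% confidence interval of -0.23 to 0.27.

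NCSTN, or nicastrin, the substrate-binding subunit of gamma-secretase, had 51.3, 64.3, 66.8 and 68.8 CPM in Lmx1aE1-EGFP libraries, against 93.9, 106, 119.9 and 116 CPM in Sox3U3-EGFP libraries. The lowest Sox3U3-EGFP library was well above the highest Lmx1aE1-EGFP library, with a log2 fold change of -0.79 (SE 0.12, edgeR adjusted p = 0.000209). PSEN2, a catalytic presenilin of the complex, had 27.4, 37.6, 36.8 and 38.8 CPM in Lmx1aE1-EGFP libraries, against 47.7, 49.3, 48.8 and 51.6 CPM in Sox3U3-EGFP libraries. Lmx1aE1-EGFP library 1 was far below the rest of its group, and without it the log2 fold change of -0.49 (SE 0.13, edgeR adjusted p = 0.0139) became -0.38 (edgeR adjusted p = 0.0655). The call was also lost within the deeper libraries (edgeR adjusted p = 0.202, the highest of the alternatives, with 0.0061 the lowest) and within the shallower libraries (edgeR adjusted p = 0.0616). APH1A, a scaffold subunit, did not pass, with a log2 fold change of 0.16 (SE 0.16).

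The 4 enzymes picked by the rule that put sugars on the receptor did not pass edgeR's test. LFNG, the Fringe enzyme that favours signalling from Delta ligands, had 36.4 to 50.2 CPM in Lmx1aE1-EGFP libraries, against 24.2 to 39.6 CPM in Sox3U3-EGFP libraries, and a log2 fold change of 0.34 (SE 0.16, edgeR adjusted p = 0.152). RFNG and MFNG, the other Fringe enzymes, had log2 fold changes of 0.25 (SE 0.22) and -0.76 (SE 0.63). MFNG had no more than 42 counts in any library. POFUT1, which adds the fucose on which Fringe enzymes build, had 204 to 268 CPM in Lmx1aE1-EGFP libraries, against 243 to 322 CPM in Sox3U3-EGFP libraries, a log2 fold change of -0.29 (SE 0.11, edgeR adjusted p = 0.0653, with a range of 0.00975 to 0.327 over the alternatives, of which 7 of 19 passed). Of these 4 genes, 1 had an unadjusted p under 0.05 (35.4% of all genes did), none passed with DESeq2 and 2 passed with limma-voom. Of all 16861 genes tested, limma-voom called 2590 higher in Lmx1aE1-EGFP+ cells and 2468 higher in Sox3U3-EGFP+ cells. DESeq2 called 2389 and 2014.

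In the nucleus, the coactivator MAML2 had the highest log2 fold change of the 35 genes. It had 34.4, 30.6, 28.7 and 24.1 CPM in Lmx1aE1-EGFP libraries, against 13.6, 11.8, 14.3 and 7.89 CPM in Sox3U3-EGFP libraries. Every Lmx1aE1-EGFP library was above every Sox3U3-EGFP library, with a mean of 29.5 ± 4.29 against 11.9 ± 2.87 CPM (SD, n = 4 each). The log2 fold change was 1.29 (SE 0.19, edgeR adjusted p = 0.000144). RBPJ, the DNA-binding partner of the cleaved receptor, had 27.8 to 35.8 CPM in Lmx1aE1-EGFP libraries, against 32.1 to 43.1 CPM in Sox3U3-EGFP libraries, a log2 fold change of -0.23 (SE 0.14, edgeR adjusted p = 0.249). NRARP, a target of the pathway that also limits it, had 4.34 to 5.46 CPM in Lmx1aE1-EGFP libraries, against 1.92 to 4.45 CPM in Sox3U3-EGFP libraries. The groups overlapped only slightly, and its log2 fold change of 0.61 (SE 0.29) did not pass (edgeR adjusted p = 0.147).

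**Figure D2:**
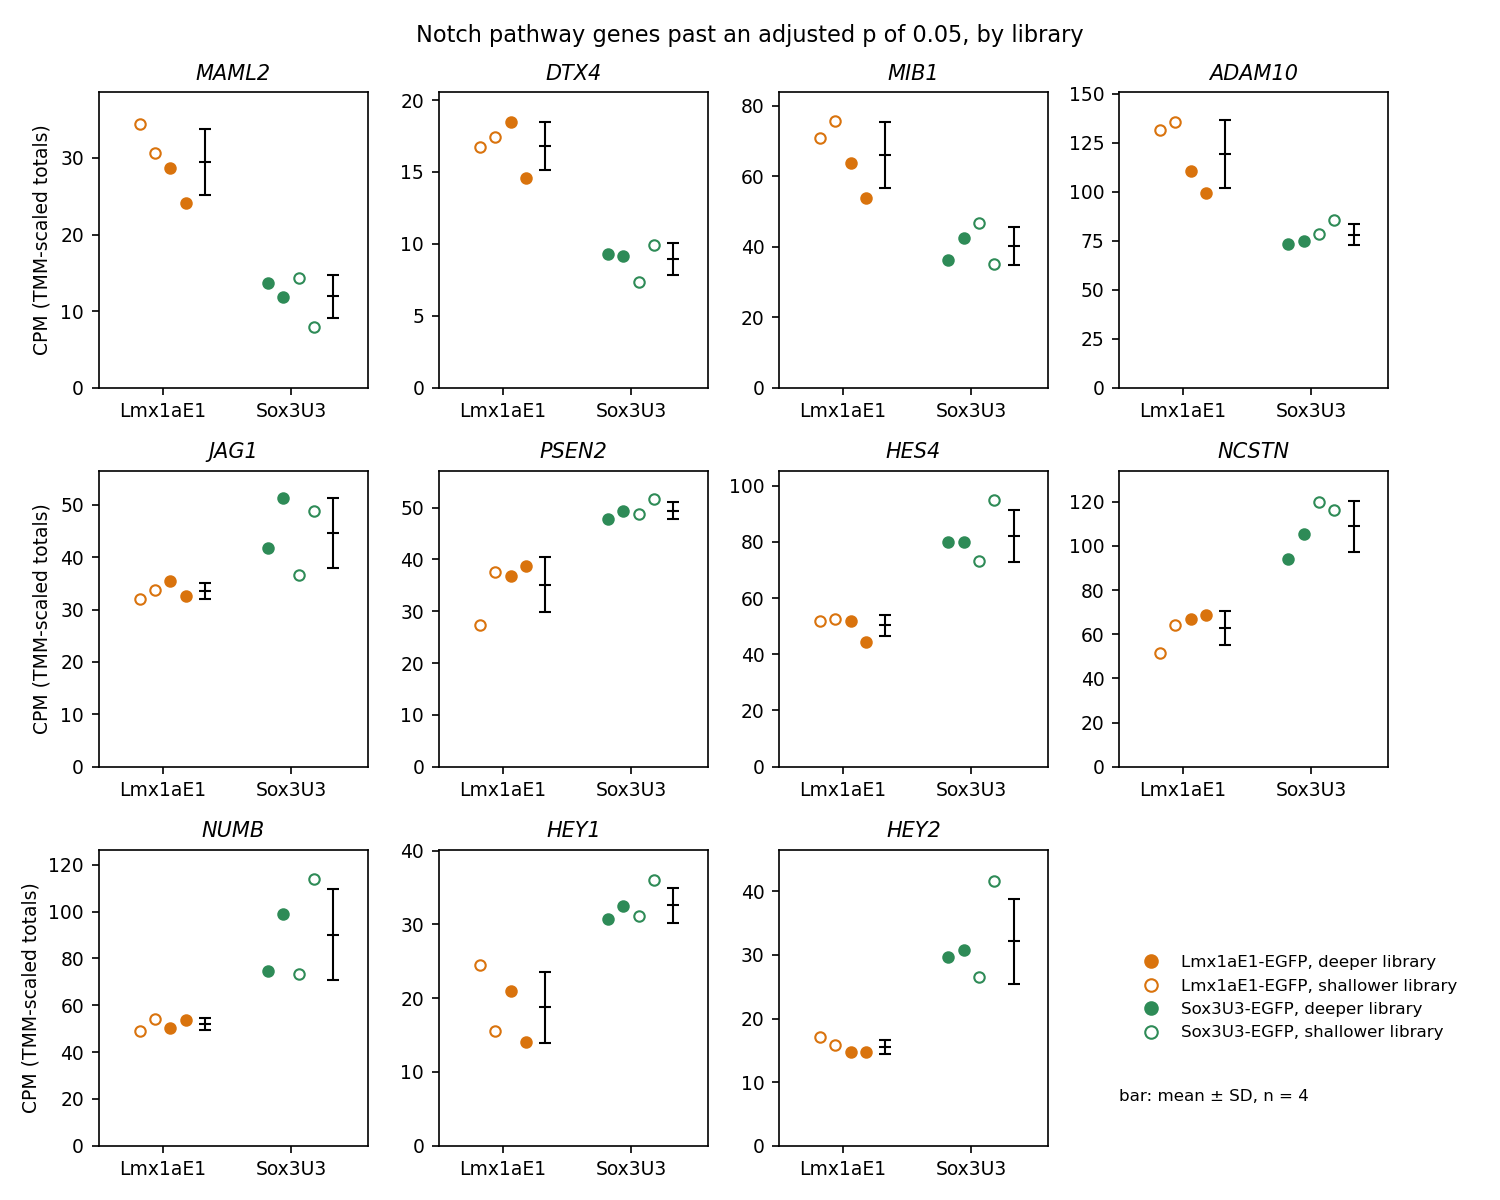
Level (y axis, CPM from TMM-scaled library totals) of the 11 genes past an adjusted p of 0.05 in each library, with Lmx1aE1-EGFP in orange and Sox3U3-EGFP in green, filled points for deeper and open points for shallower libraries, and bars for the mean ± SD of 4 libraries. The libraries of the 2 reporters do not overlap for any of the 11 genes, and they come closest for JAG1, at 35.5 CPM in Lmx1aE1-EGFP library 3 and 36.6 CPM in Sox3U3-EGFP library 3.

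The HES and HEY factors, the best-known targets of the pathway, showed 2 patterns. HES4, HEY1 and HEY2 were higher in Sox3U3-EGFP+ cells, while HES1, HES5, HES6 and HEYL did not pass the test between the reporters, although HES6 did with depth class as a block. HEY2, a repressor of the HEY family, had 17.02, 15.8, 14.7 and 14.7 CPM in Lmx1aE1-EGFP libraries, against 29.6, 30.7, 26.5 and 41.7 CPM in Sox3U3-EGFP libraries. The Lmx1aE1-EGFP libraries were tightly grouped at 15.5 ± 1.11 CPM and the Sox3U3-EGFP libraries averaged 32.1 ± 6.63 CPM (SD, n = 4 each), with library 4 the highest. It had a log2 fold change of -1.05 (SE 0.17, edgeR adjusted p = 0.000242).

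HEY1, its close relative, had 24.5, 15.6, 21.0 and 14.1 CPM in Lmx1aE1-EGFP libraries, against 30.8, 32.5, 31.2 and 36.03 CPM in Sox3U3-EGFP libraries. Here the Lmx1aE1-EGFP libraries were the more variable group, and the groups did not overlap. This gave a log2 fold change of -0.80 (SE 0.18, edgeR adjusted p = 0.00328). Within the shallower libraries alone it was -0.74, and the call was lost (edgeR adjusted p = 0.079, the highest of 19 alternatives, with 0.000213 the lowest). HES4, a repressor of the HES family, had 52.0, 52.7, 51.8 and 44.5 CPM in Lmx1aE1-EGFP libraries, against 79.96, 80.1, 73.1 and 94.9 CPM in Sox3U3-EGFP libraries. The lowest Sox3U3-EGFP library was far above the highest Lmx1aE1-EGFP library, with a log2 fold change of -0.71 (SE 0.12, edgeR adjusted p = 0.000415).

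Endothelial cells also express HEY1 and HEY2. The 8 endothelial genes alone summed to 75.7 to 156 CPM in Lmx1aE1-EGFP libraries, against 138 to 238 CPM in Sox3U3-EGFP libraries. Sox3U3-EGFP library 4 had the highest of these sums, with HEY1 at 36.03 CPM and HEY2 at 41.7 CPM. Lmx1aE1-EGFP library 4, at 156 CPM, had the highest within its reporter, with HEY1 at 14.1 CPM and HEY2 at 14.7 CPM. With blood markers added, its sum of 557 CPM was the highest of all 8 libraries. The part of endothelial cells in the HEY1 and HEY2 differences was not tested.

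HES5, a target that responds to Notch in neural progenitors, did not pass the test, and its estimate lay close to 0. It had 13.9, 17.6, 12.7 and 17.1 CPM in Lmx1aE1-EGFP libraries, against 9.76, 17.7, 18.9 and 15.8 CPM in Sox3U3-EGFP libraries. The lowest and the highest libraries were both from Sox3U3-EGFP, and the log2 fold change of -0.013 had a 95% confidence interval of -0.46 to 0.44 (SE 0.21, edgeR adjusted p = 0.974). HES1, which is also driven by signals other than Notch, had 69.3, 120.3, 189.7 and 161 CPM in Lmx1aE1-EGFP libraries, against 149.5, 149, 75.7 and 27.0 CPM in Sox3U3-EGFP libraries. Its levels spread widely within both reporters, with Sox3U3-EGFP library 4 the lowest of all, and the groups overlapped broadly. The log2 fold change was 0.42 (SE 0.58, 95% confidence interval -0.99 to 1.84, edgeR adjusted p = 0.655).

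**Figure D3:**
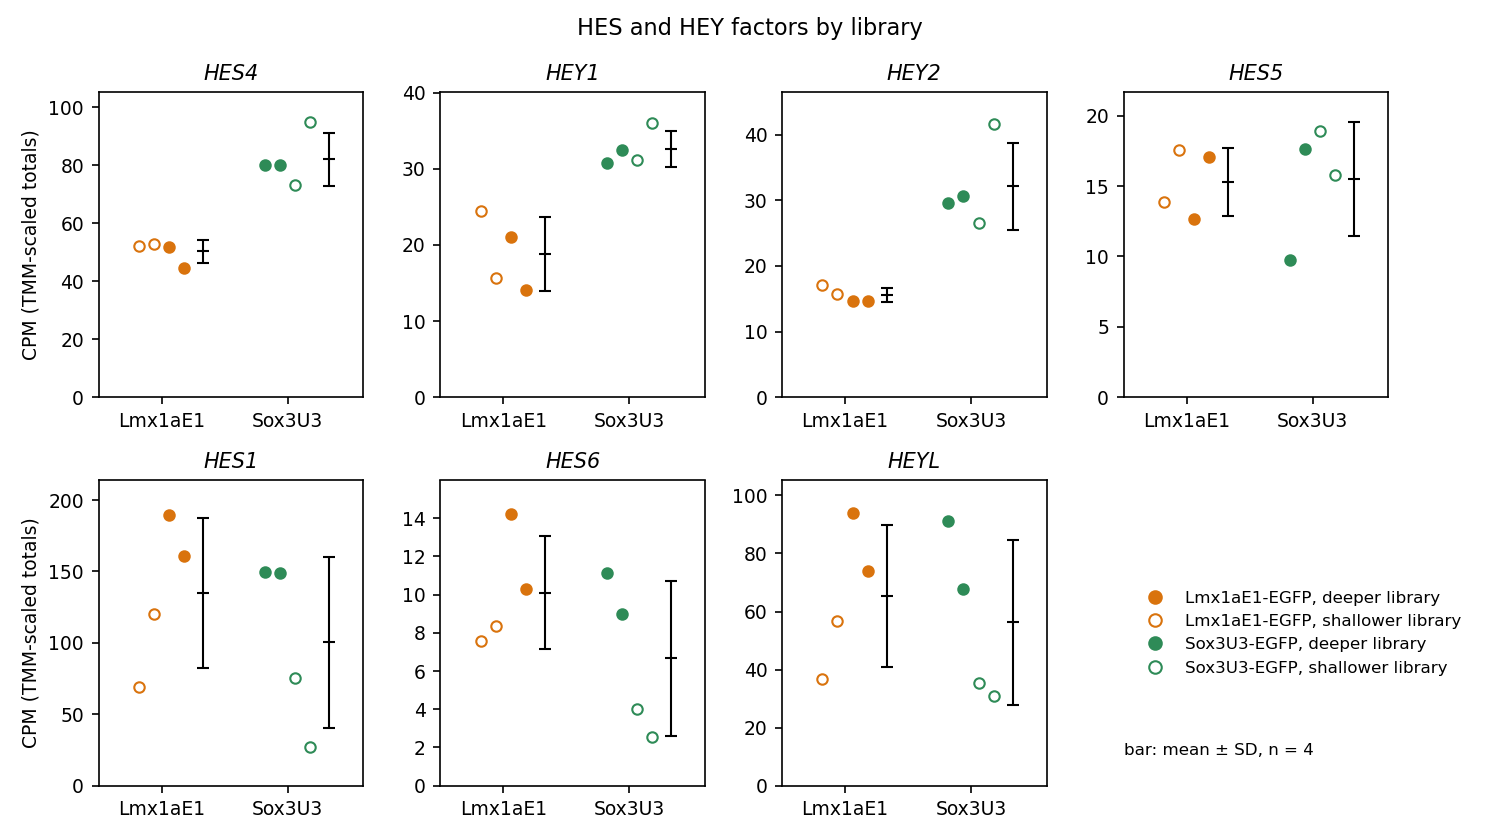
Level (y axis, CPM from TMM-scaled library totals) of the 7 tested HES and HEY factors in each library, with Lmx1aE1-EGFP in orange and Sox3U3-EGFP in green, filled points for deeper and open points for shallower libraries, and bars for the mean ± SD of 4 libraries. HES4, HEY1 and HEY2 separate the reporters, HES5 overlaps between the reporters and the depth classes, and HES1, HES6 and HEYL are higher in all 4 deeper than in all 4 shallower libraries.

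The levels of HES1, and of HES6 and HEYL, which were singled out after their values were seen, split by depth class. Within a class they did not always follow the totals. HES1 had 75.7 and 27.0 CPM in Sox3U3-EGFP libraries 3 and 4, whose totals were 9388922 and 9640981 counts. HES6, which opposes HES1 and promotes neuronal differentiation, had 14.2 and 10.3 CPM in the deeper Lmx1aE1-EGFP libraries 3 and 4, against 7.59 and 8.34 CPM in the shallower libraries 1 and 2. It had 11.2 and 8.97 CPM in the deeper Sox3U3-EGFP libraries 1 and 2, against 3.99 and 2.53 CPM in the shallower libraries 3 and 4. HEYL, the third HEY factor, had 94.0 and 73.9 CPM in the deeper Lmx1aE1-EGFP libraries, against 36.8 and 56.7 CPM in the shallower ones. In Sox3U3-EGFP it had 91.1 and 67.7 CPM in the deeper libraries, against 35.4 and 30.9 CPM in the shallower ones. For all 3 genes the 4 deeper libraries lay above the 4 shallower libraries, irrespective of the reporter.

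In an edgeR model with both depth class and reporter, HEYL differed between deeper and shallower libraries by 1.06 on the log2 scale (SE 0.15, edgeR adjusted p = 0.00464), and held in all 13 alternatives. HES6 differed by 1.10 (SE 0.25, edgeR adjusted p = 0.0334) and lost its call in 9 of 13 alternatives, 6 of which left out a library (Lmx1aE1-EGFP 1 or 3 or any Sox3U3-EGFP library), with adjusted p between 0.00142 and 0.113. HES1 differed by 1.21 (SE 0.38) without passing in edgeR (adjusted p = 0.22, with a range of 0.00287 to 0.433 over the alternatives). It passed with DESeq2, with limma-voom and without Sox3U3-EGFP library 4. HES4, HEY1, HEY2 and HES5 had depth differences between -0.22 and -0.09 and none passed. Since depth was not assigned by the study, it cannot be told apart from anything else that the deeper libraries had in common.

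Across the 35 genes, 2 passed between deeper and shallower libraries (5.71%), compared with 1.47% of all genes tested, and both were higher in the deeper libraries, as 1.17% of all genes were. By edgeR's adjusted p, 0 of the 35 genes were lower in the deeper libraries, as 0.302% of all genes were. At an unadjusted p under 0.05, 2 of the 35 genes and 7.2% of all genes were lower there. With DESeq2 or limma-voom, 0 of the 35 genes were. Levels of the depth classes did not overlap for 3 genes (8.57%), compared with 5.12% of all genes. The median depth difference was 0.02 over the 35 genes and -0.01 over all genes. For no gene tested did the interaction of reporter and depth class pass an adjusted p under 0.05 (edgeR). At an unadjusted p under 0.05, 754 of all genes tested (4.47%) and 3 of the 35 did. With 2 libraries of a reporter in each depth class, this test can miss such interactions, and it was not run with another tool. The 11 genes that differed between the reporters all passed with depth class as a block. That model also called 4 genes that did not pass without the block. NOTCH2 (log2 fold change 0.38, edgeR adjusted p = 0.0126) and HES6 (0.70, edgeR adjusted p = 0.0422) were higher in Lmx1aE1-EGFP+ cells. POFUT1 (-0.29, edgeR adjusted p = 0.0216) and MIB2 (-0.42, edgeR adjusted p = 0.0252) were higher in Sox3U3-EGFP+ cells. This made 6 and 9 genes in place of 4 and 7. Calls over all 16861 genes tested rose too, to 2545 and 2230 in place of 2033 and 1904.

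Of the marker genes tested, 3 passed between deeper and shallower libraries, where 1.47% of all genes tested did. They were 1 of 12 neural crest, 1 of 12 otic and 1 of 10 endothelium and blood markers. None passed among 6 epibranchial, 6 neural tube, 7 mesenchyme and 9 sensory neuron markers. The neural crest marker MSX1 was higher in the deeper libraries by 1.54 on the log2 scale (edgeR adjusted p = 0.000517), the otic marker SOX8 was higher by 0.65 (edgeR adjusted p = 0.0143), and the endothelial marker PECAM1 had a log2 difference of -0.69 (edgeR adjusted p = 0.024). The 3 are not in the neural tube or mesenchyme lists. Neural tube markers summed to 33.3 to 47.7 CPM in the deeper libraries and 16.2 to 52.4 CPM in the shallower ones, and mesenchyme markers to 150.1 to 251 CPM in the deeper and 91.7 to 173 CPM in the shallower ones. Sox3U3-EGFP libraries 3 and 4 were lowest in HES6, in HEYL and in both sums. Lmx1aE1-EGFP library 1 was low in HES1 and HEYL and had the highest neural tube sum. Their part in the depth difference was not tested.

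**Figure D4:**
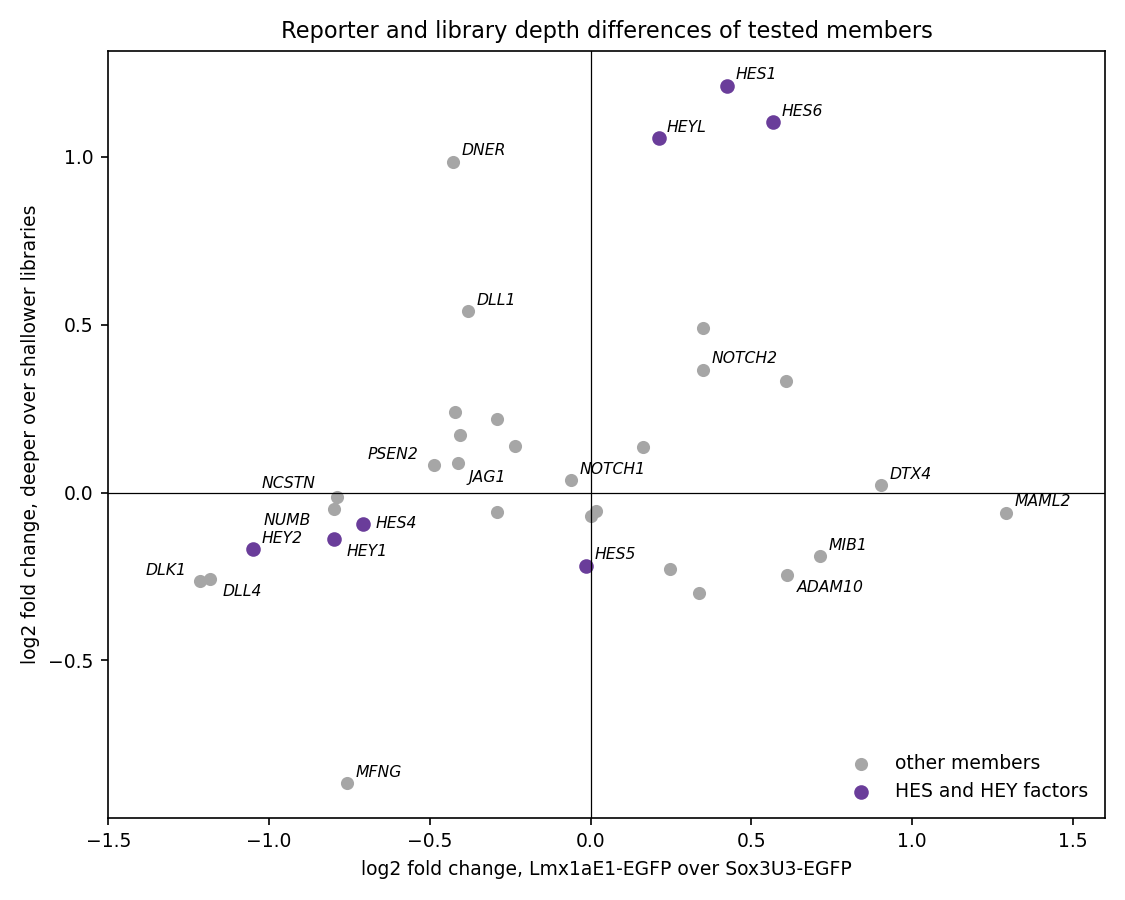
Log2 fold change between reporters (x axis, Lmx1aE1-EGFP over Sox3U3-EGFP) against the log2 fold change between deeper and shallower libraries (y axis) for 34 of the 35 tested genes, with HES and HEY factors in purple and the others in grey. HES1, HES6 and HEYL lie at 1.06 to 1.21 on the depth axis, while HES4, HEY1 and HEY2 lie at -1.05 to -0.71 on the reporter axis and near 0 on the depth axis.

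The 2 sets of factors were formed from these same levels, so the correlations within and between them add no separate evidence. They describe 8 libraries that share the reporter difference and depth. Pearson's r of log2 CPM was 0.984 for HES4 with HEY2, 0.911 for HES4 with HEY1 and 0.889 for HEY1 with HEY2. It was 0.931 for HES1 with HES6, 0.904 for HES1 with HEYL and 0.896 for HES6 with HEYL. Between the sets it was negative in every pair, from -0.653 for HES6 with HEY2 to -0.317 for HES4 with HEYL. HES5 did not follow either set, with r between -0.485 and -0.023. Among all 595 pairs of the 35 genes, the highest values of those without a HES or HEY factor were 0.956 for PSEN2 with NCSTN and 0.944 for MAML2 with MIB1, pairs whose members differed between the reporters in the same direction.

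Of 33 further pathway genes tested from a list of 40, 9 had higher levels in Lmx1aE1-EGFP+ cells (27.3%, against 12.1% of all genes), 3 had higher levels in Sox3U3-EGFP+ cells (9.09%, against 11.3% of all genes), and the median log2 fold change was 0.20 (-0.04 over all genes tested). The xylosyltransferases GXYLT1 and GXYLT2, which extend a glucose on the receptor, were both higher in Lmx1aE1-EGFP+ cells. GXYLT1 averaged 56.1 CPM in Lmx1aE1-EGFP libraries, against 24.9 CPM in Sox3U3-EGFP libraries (log2 fold change 1.18, SE 0.16, edgeR adjusted p = 4.8e-05), and GXYLT2 had a log2 fold change of 0.90 (SE 0.18, edgeR adjusted p = 0.00146). The coactivator CREBBP, an acetyltransferase, and the corepressor CTBP2 were also higher in Lmx1aE1-EGFP+ cells, by 0.62 (SE 0.13, edgeR adjusted p = 0.00282) and 0.58 (SE 0.14, edgeR adjusted p = 0.00548). The histone deacetylase HDAC1, part of corepressor complexes, averaged 118 CPM in Lmx1aE1-EGFP libraries, against 178 CPM in Sox3U3-EGFP libraries (log2 fold change -0.59, SE 0.10, edgeR adjusted p = 0.000562). EGFL7, a secreted Notch antagonist made by endothelium and also one of the endothelial markers above, had a log2 fold change of -0.95 (SE 0.20, edgeR adjusted p = 0.00311).

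HES and HEY repressors hold down proneural factors, which were looked at through a list of proneural and related genes. Whether the repressors acted on them here was not tested. Of the 17 listed genes in the table, 13 passed the filter on low counts, whereas NEUROG1, which starts neurogenesis in the otic placode, had at most 5 counts in any library and was not tested. NEUROD1, which acts downstream of it, averaged 3.47 CPM in Lmx1aE1-EGFP libraries, against 2.12 CPM in Sox3U3-EGFP libraries, with a log2 fold change of 0.60 (SE 0.57, edgeR adjusted p = 0.489). Of the 13, 3 passed, with higher levels in Lmx1aE1-EGFP+ cells (23.1%, against 12.1% of all genes). ID4 and ID2, inhibitors of proneural factors rather than proneural factors themselves, had log2 fold changes of 1.22 (SE 0.28, edgeR adjusted p = 0.00487) and 0.44 (SE 0.12, edgeR adjusted p = 0.0133). ATOH8, a distant member of the Atonal family, had one of 0.73 (SE 0.23, edgeR adjusted p = 0.0314).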

How the data were processed

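The deposited table holds raw read counts by Ensembl gene for 8 RNAseq libraries. The authors trimmed reads with Trim Galore, ran the NF-core RNAseq pipeline with its default STAR alignment to GalGal6 and, per the labels, counted with featureCounts. The deposited counts are neither normalized nor filtered. The strand setting and the treatment of reads that fit several genes are not given in the sources used here, so counts of overlapping, antisense or near-identical genes are uncertain.

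The filterByExpr filter of edgeR 4.0.16 (R 4.3.3) kept 16861 of 24356 genes. TMM factors were computed, and the robust quasi-likelihood test was fitted with the reporter as its only term. P-values were adjusted over all genes tested after Benjamini and Hochberg. Fold changes are Lmx1aE1-EGFP over Sox3U3-EGFP. Standard errors (SE) were derived from fold changes and F statistics. CPM uses TMM-scaled totals, and log2 CPM adds a prior count of 2. Thresholds were an adjusted p of 0.05 and, where stated, a log2 fold change of 1.5. Exact permutation tests were two-sided. Libraries were grouped by their GEO titles, 4 per reporter, and totals ran from 6559872 to 45183366 counts. The biological coefficient of variation was 0.225. In data simulated from these libraries (16440 genes), the test recovered 78% of genes with a log2 change of 1 and 99% with a change of 2, with 15 false calls. Changes were placed only in genes above a minimum mean CPM. DLL4, DLK1, DNER, NRARP, MFNG and DTX1 lay below it, so these percentages do not cover them. Absolute log2 changes under 1, as most of the reporter differences above were, were not simulated. The percentages do not cover these either.

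Shown library by library are all genes past the adjusted p, and NOTCH1, NOTCH2, DLL1, JAG1, JAG2, HES1, HES5 and HEY1 in any case. At most 6 genes with the smallest adjusted p were named from each further list. The fuller values of DLL4, HES6 and HEYL, and the naming of NEUROD1 and NEUROG1, were chosen after their values were seen. The pathway genes and all lists were chosen with earlier results of these data known. Alternative settings were RLE factors, unscaled library totals, no count filter, a minimum of 10 counts in all libraries, DESeq2 1.42.0, limma-voom with quality weights (limma 3.58.1), a replicate block, omission of each library, deeper or shallower libraries only, and thinning to the smallest total. A block for depth class and the test of deeper against shallower libraries were added after seeing the data. Gene lengths and a genome were not used here, so levels are not compared between genes and no coordinates or sequences are given. The separate values of some genes that enter the counts and medians are not reported here.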

Additional observations from a re-analysis of the deposited data

Results flagged for a closer look

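Among 70 groups of 4 libraries, 1 for each tested gene and reporter, 4 had a library farther from the others than Dixon's 95% limit. Chance gives about 1 in 20, or 3.5. The ratio is the gap over the range on the log2 CPM scale, so it does not follow directly from the CPM values given here. All 4 were low values in Lmx1aE1-EGFP libraries. Library 4 was lowest for JAG2 (8.04 CPM, nearest other library 15.6 CPM, ratio 0.833) and for HES4 (44.5 CPM, nearest 51.8 CPM, ratio 0.899). Library 1 was lowest for PSEN2 (27.4 CPM, nearest 36.8 CPM, ratio 0.851) and for DNER (1.964 CPM, nearest 4.02 CPM, ratio 0.886). The reporter difference of HES4 passed without library 4, whereas that of PSEN2 did not pass without library 1.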

How the results depend on the processing

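Depth limits the genes with few counts (DLK1, MFNG, DTX1), and 4 libraries a group limit all. Of the 11 reporter calls, 8 to 11 kept their direction and passed under each of 19 alternatives, and the tests lost were those of JAG1, PSEN2 and HEY1. No call changed sign. With 1 library left out, 4 to 5 genes had higher levels in Lmx1aE1-EGFP+ cells and 5 to 9 in Sox3U3-EGFP+ cells. Calls over all genes tested then ran from 1448 to 2035 and from 1362 to 2056, in place of 2033 and 1904. Past both thresholds, the pathway genes called were 0, and 0 to 1 (DLL4, without Lmx1aE1-EGFP library 4). Their median log2 fold change ran from -0.20 to 0.015. Within the shallower libraries only, 4 genes were higher in Sox3U3-EGFP+ cells, as 1064 of all 15649 genes tested were. There, 1 gene (MAML2) was past both thresholds in Lmx1aE1-EGFP+ cells, and the median of the pathway genes was -0.086. With limma-voom 1 gene (DLL4) was past both thresholds in Sox3U3-EGFP+ cells and the median was -0.077. Genes past the test between depth classes were 1 with library size only, 1 after thinning and 1 to 2 with a library left out. The cause of these moves was not tested. The labels do not say whether same-numbered libraries were paired. The correlation of their deviations was -0.233 to 0.046, and that between differently numbered libraries of the 2 reporters -0.155 to 0.309, which cannot settle it. With a replicate block 4 and 6 genes passed, 10 of the 11 calls holding. Calls over all 16861 genes tested fell too, to 1550 and 1464. The planned promoter motif share was not run, since no promoter sequence was used here.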
